A study of Mus musculus with 20 samples.

Results

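The genes described here are the G1 cyclins, their kinases and the CDK inhibitors that hold them back, chosen by symbol as 10 of the 24421 genes in the count table: the D cyclins Ccnd1, Ccnd2 and Ccnd3, the E cyclins Ccne1 and Ccne2, the kinases Cdk4 and Cdk6, and the inhibitors Cdkn1a, Cdkn1b and Cdkn2c. All 10 had enough reads to be among the 12465 genes tested. RNA was measured by bulk RNA-sequencing in bone marrow-derived dendritic cells (BMDCs) of wild-type C57BL/6 mice, grown from marrow for 8 days with 40 ng/mL of the growth factor GM-CSF. The cells of 5 mice, lettered A to E, were each split over 4 groups, giving 20 libraries. DMSO Ova cells received the solvent (5% DMSO in the labels) and ovalbumin for 4 h, and DMSO IC cells the solvent and ovalbumin in IgG immune complexes, which engage Fc gamma receptors. iBET Ova and iBET IC cells received the same stimuli with 3.3 µM I-BET151 (iBET), a small molecule that keeps BET bromodomain proteins from binding acetylated histones. The labels have the inhibitor added together with the stimulus, whereas the methods have it added before. The methods describe a millimolar stock of iBET in DMSO that was diluted to the micromolar dose, which by itself would bring far less DMSO than the 5% of the control label. Whether DMSO was made equal between groups is not given in the sources used here, so a difference in solvent and the inhibitor cannot be told apart.

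D cyclins bind CDK4 and CDK6 when growth factors are present, and these complexes begin to phosphorylate RB, which releases E2F factors that switch on the genes for DNA replication. E cyclins then drive CDK2 across the G1 to S transition. Inhibitors of the INK4 family, such as the product of Cdkn2c (p18), bind CDK4 and CDK6, and those of the CIP/KIP family, p21 from Cdkn1a and p27 from Cdkn1b, act mainly on CDK2 complexes and also help to assemble D cyclin complexes. Progenitors divide in GM-CSF cultures, and dendritic cells leave the cycle as they mature.

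Libraries held 16447491 to 29245150 counted reads (median 21764663). All 6 dendritic cell markers examined were tested. Their summed level was 4338 to 6750 CPM (reads of a gene scaled to library size) in DMSO Ova and 5020 to 7992 CPM in DMSO IC. It was 4655 to 7195 CPM in iBET Ova and 5557 to 9078 CPM in iBET IC. Macrophage markers were also high, with a sum of 1318 to 1916 CPM in DMSO Ova and 1421 to 2036 CPM in DMSO IC against 912 to 1286 CPM in iBET Ova and 968 to 1493 CPM in iBET IC, whereas the 4 lymphocyte markers summed to at most 0.408 CPM in any library. With iBET 2 of 5 macrophage markers (Csf1r and Cd14) and 1 of 6 dendritic cell markers (Flt3) fell under each stimulus, and the others did not pass. Csf1r, the receptor for the macrophage growth factor and the largest part of the macrophage sum (1032 CPM on average in DMSO Ova), fell by 0.83 on the log2 scale with Ova (edgeR adjusted p = 3.23e-05), and Flt3, a receptor of dendritic cell progenitors, fell by 3.66 (adjusted p = 8.48e-06). Flt3 was a low gene, with a mean of 3.03 CPM in DMSO Ova and at most 7 reads per library in iBET Ova. Mpo, a granulocyte precursor gene, rose but stayed at or under 0.834 CPM. The part of such shifts in the results below was not tested, and in bulk RNA fewer cells of a type and less RNA per cell cannot be told apart. The second principal component of all tested genes (14.9% of the variance) set mice A and B apart (-33.8 to -18.6) from mice C, D and E (9.83 to 23.5) in every group. No label names a batch for this split.

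Cdk4 and Ccnd3, a kinase and a cyclin that meet in 1 complex, are shown with the bases just before their transcription starts, since the groups of iBET IC and DMSO IC did not overlap for either gene and the kinase was lower and the cyclin higher with iBET. The windows are from RefSeq on GRCm38.p6 (the mm10 build of the files), on the plus strand and 5′ to 3′, with E-boxes (CACGTG) and GC boxes (GGGCGG or, on the other strand, CCGCCC) in capitals. The Cdk4 window lies at chr10:127063285-127063533 and the Ccnd3 window at chr17:47504801-47505050, directly before the gene. RefSeq has a second Ccnd3 start further along the gene, whose window (not shown) held 1 GC box and 1 CCAAT box.
Cdk4: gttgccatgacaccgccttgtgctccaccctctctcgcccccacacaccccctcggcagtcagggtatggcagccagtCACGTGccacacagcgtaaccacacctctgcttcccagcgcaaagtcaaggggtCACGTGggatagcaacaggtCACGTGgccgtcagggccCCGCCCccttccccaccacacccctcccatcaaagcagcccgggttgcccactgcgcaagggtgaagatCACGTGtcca
Ccnd3: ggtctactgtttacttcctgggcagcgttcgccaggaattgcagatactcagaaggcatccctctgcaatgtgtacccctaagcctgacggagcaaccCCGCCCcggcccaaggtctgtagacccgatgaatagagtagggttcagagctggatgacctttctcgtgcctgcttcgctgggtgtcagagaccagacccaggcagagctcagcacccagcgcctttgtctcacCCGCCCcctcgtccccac
The Cdk4 window held 4 E-boxes and 1 GC box, and the Ccnd3 window shown held 2 GC boxes and no E-box. Over 32851 mouse promoter windows of the same 250 bases, 6.02% held an E-box and 32.7% a GC box on either strand. RefSeq windows were at hand for 7 of the 10 genes, and not for Ccnd1, Ccnd2 and Ccne2. The IC groups of Ccnd1 and Cdkn2c did not overlap either. The share of all tested genes without overlap was not counted, and 56.1% of them passed with IC in either direction by edgeR. Besides Cdk4, only Cdk6, which also fell, had an E-box (1) in its window, and Cdkn2c, which fell too, had none. A link between these motifs and the changes was not tested. These matches describe the letters only.

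Levels of different genes were compared per kilobase of exon, with the exons of all annotated transcripts of a gene merged. Which transcripts the cells made was not determined, and the order of genes below depends on these lengths. In DMSO Ova, the inhibitor Cdkn1a stood highest at 51.3 ± 12.8 CPM per kb (SD, n = 5), above Cdk4 at 27.2 ± 3.06 with no overlap between libraries. Ccnd2 (17.4 ± 9.95 CPM per kb) overlapped both Cdk4 above it and Cdkn1b (10.3 ± 0.955) below it. Ccne1 (7.08 ± 0.982), Ccnd3 (6.20 ± 1.25) and Cdkn2c (5.21 ± 0.231) formed the middle of the order, and each overlapped its neighbour within it. Ccne2 (3.56 ± 0.699 CPM per kb) and Cdk6 (2.70 ± 0.714) came next and overlapped, and Ccnd1 was lowest at 0.781 ± 0.433, with every library below every library of Cdk6. In iBET IC the ends of the order were as in DMSO Ova, with Cdkn1a at 71.7 ± 23.7 and Ccnd1 at 0.293 ± 0.0903 CPM per kb, and Ccnd3 (8.35 ± 1.17) then had a mean above that of Ccne1 (6.73 ± 0.281).

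**Figure D1:**
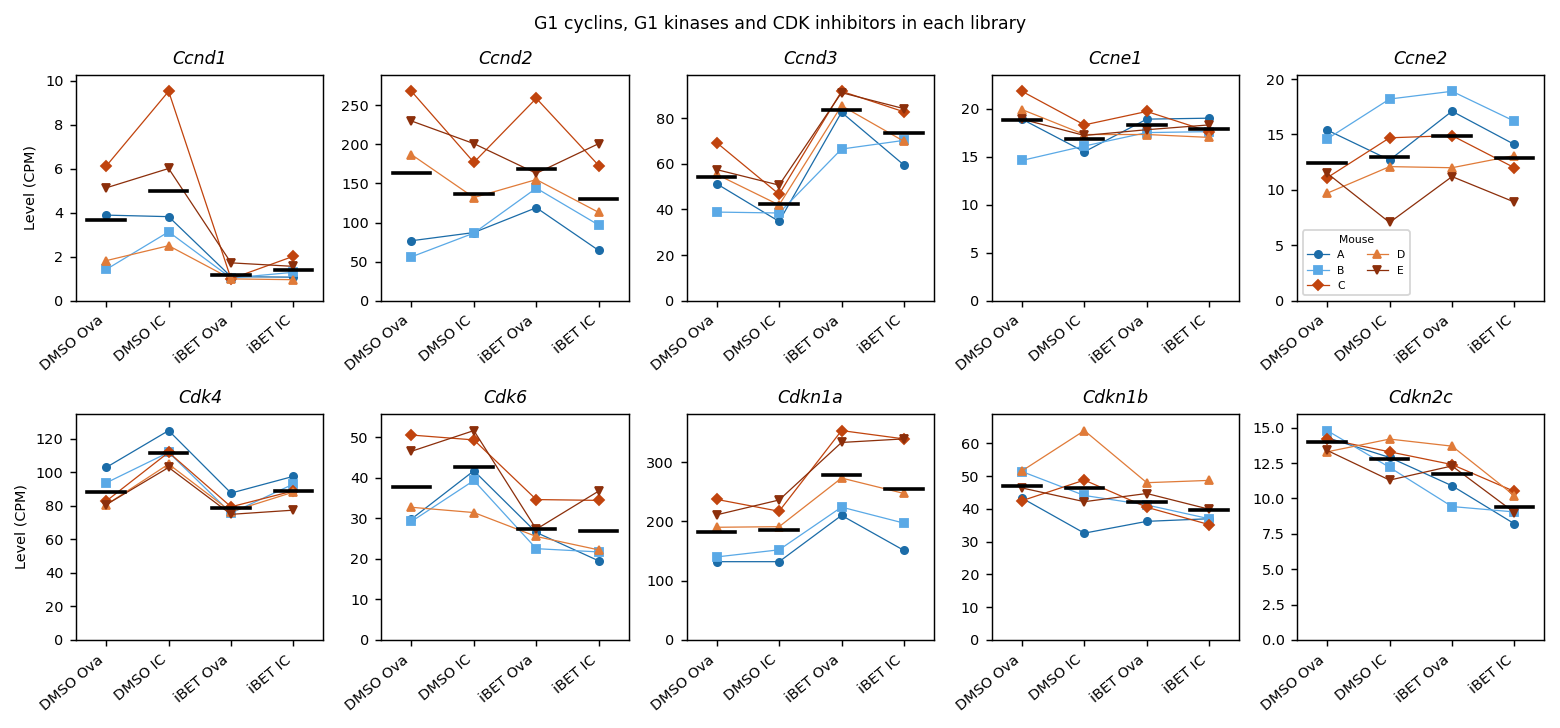
Level in CPM (vertical axes, each from 0) of the 10 genes in the 4 groups, with 1 point per library, lines joining libraries of the same mouse and black bars at the group means. Ccnd1 sat at 0.954 to 2.02 CPM in all 10 iBET libraries, and Ccnd3 reached 91.7 CPM in iBET Ova.

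The first question was what iBET did to these genes in Ova-treated control cells and in IC-stimulated cells. Among the 10 genes, the D cyclin Ccnd1, the kinase Cdk6 and the inhibitor Cdkn2c fell and the D cyclin Ccnd3 rose with iBET under both stimuli, while Cdkn1a rose with Ova and Cdk4 fell with IC in the unpaired fit. With Ova, 2 of 10 rose and 3 fell (edgeR's quasi-likelihood test, adjusted p under 0.05 over all genes), against 27.7% of all tested genes higher and 28.9% lower. With IC, 1 rose and 4 fell, against 27.1% and 29%. These shares are close to the background, so the counts say nothing particular about this group of genes. The median log2 fold change of the 10 was -0.10 with Ova and -0.16 with IC, beside -0.0029 and -0.0054 over all tested genes. When the mouse was kept as a block, 6 of 10 passed with Ova (68.7% of all genes in either direction) and 7 of 10 with IC (68%). In that paired fit Cdk4 fell and Cdkn1a rose under both stimuli, and Cdkn1b also fell with IC.

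Ccnd1, the D cyclin most tied to growth factor signals in many tissues, fell furthest. In DMSO Ova its level was 3.89, 1.42, 6.12, 1.82 and 5.13 CPM in mice A to E, and in iBET Ova 1.09, 1.03, 0.992, 0.991 and 1.72 CPM. The groups overlapped only through mouse B in DMSO Ova and mouse E in iBET Ova, and all 5 mice were lower with iBET. In DMSO IC it was 3.82, 3.13, 9.52, 2.50 and 6.01 CPM and in iBET IC 1.07, 1.29, 2.02, 0.954 and 1.56 CPM, with no overlap. The log2 fold change was -1.64 ± 0.408 (SE) with Ova (3.13-fold lower, edgeR adjusted p = 0.00189) and -1.87 ± 0.399 with IC (3.65-fold lower, adjusted p = 0.000522). The gene is a low one here, with 17 to 41 reads per library in iBET Ova. It shares 1100 exon bases with LTO1 on the other strand, and the strand setting of the counting is not given in the sources used here.

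Among 8371 tested genes with a mean of at least 10 CPM, those whose centred log2 CPM over the 20 libraries lay nearest to that of Ccnd1 were Tarm1 (root mean square difference 0.391) and Flrt2 (0.421). Tarm1 averaged 21.2 CPM in DMSO Ova and 6.18 CPM in iBET Ova, and 24.9 CPM in DMSO IC and 6.43 CPM in iBET IC. Flrt2 averaged 23.7 CPM in DMSO Ova and 10.1 CPM in iBET Ova, and 48.7 CPM in DMSO IC and 13.3 CPM in iBET IC.

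Ccnd3, the D cyclin common in blood cells, moved the other way. It was at 51.2, 38.8, 69.2, 55.3 and 57.4 CPM in DMSO Ova and at 82.5, 66.4, 91.7, 85.4 and 91.1 CPM in iBET Ova. Mouse C was the only DMSO library above the lowest iBET library, that of mouse B. With IC the levels were 34.7, 38.4, 46.6, 41.9 and 50.6 CPM in DMSO and 59.4, 70.2, 82.7, 69.8 and 84.1 CPM in iBET, with no overlap. The rise was 0.62 ± 0.136 (SE) on the log2 scale with Ova (1.53-fold, edgeR adjusted p = 0.000693) and 0.79 ± 0.137 with IC (1.72-fold, adjusted p = 6.43e-05), and all 5 mice were higher under each stimulus. Ccnd3 shares 361 exon bases with Bysl on the other strand.

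Ccnd2, the most abundant D cyclin per kilobase of merged exon, did not pass the test under either stimulus. Its log2 fold change was 0.037 with Ova (95% interval -0.78 to 0.86) and -0.081 with IC (-0.90 to 0.74), intervals wide enough to hold a sizeable change either way. Its libraries spread by mouse: in DMSO Ova, mice A and B were at 76.7 and 56.1 CPM and mice C, D and E at 187 to 268 CPM. With Ova, iBET was higher in mouse A (by 0.64 on the log2 scale) and mouse B (1.36) and lower in mice C (-0.052), D (-0.27) and E (-0.50). Fitted on mice A and B alone the change was 0.98 (edgeR adjusted p = 0.00426), and on mice C, D and E alone -0.20 (adjusted p = 0.474). The sets were formed from the split in all genes, and the difference between them was not tested.

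Shares of the D cyclins rest on merged exon lengths of 4.709 kb for Ccnd1, 9.409 kb for Ccnd2 and 8.775 kb for Ccnd3. Other lengths would change them. As a share of the summed CPM per kb of the 3 D cyclins, Ccnd2 made up 67.5% ± 11.1 (SD, n = 5) in DMSO Ova and 63.9% ± 5.69 in iBET Ova, with overlapping libraries. With IC it was 70.1% ± 4.55 in DMSO and 59.6% ± 7.51 in iBET, also with overlap, and lower with iBET in 5 of 5 mice. The Ccnd1 share was 3.34% ± 1.48 in DMSO Ova (1.46% to 5.57%) and 0.926% ± 0.277 in iBET Ova (0.552% to 1.30%), so every DMSO library lay above every iBET one. The same held with IC, at 5.08% ± 1.83 in DMSO and 1.34% ± 0.291 in iBET. The Ccnd3 share went from 29.2% ± 10.4 to 35.2% ± 5.50 with Ova, with overlap, and from 24.8% ± 4.68 to 39.1% ± 7.34 with IC, where the lowest iBET share (30.7%, mouse E) equalled the highest DMSO one (mouse B) to the digits given and 5 of 5 mice were higher with iBET.

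**Figure D2:**
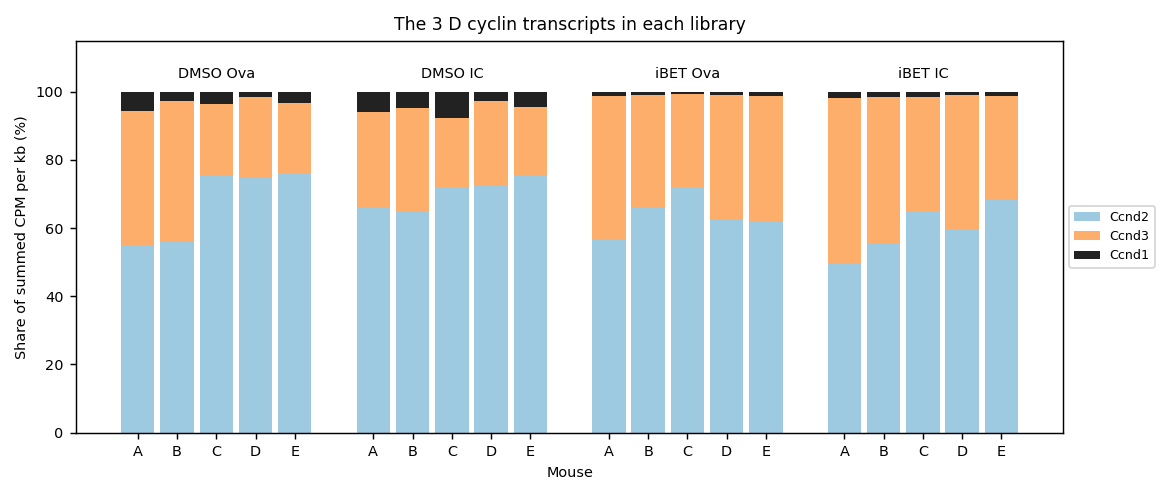
Share in percent (vertical axis) of the summed CPM per kb of Ccnd2, Ccnd3 and Ccnd1 in each library (stacked bars, 1 per mouse A to E in each of the 4 groups). The Ccnd1 part was 1.46% to 7.72% of the bar in DMSO libraries and 0.552% to 1.65% in iBET libraries.

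The E cyclins did not pass the test in any comparison. Ccne1 was at 14.6 to 21.8 CPM in DMSO Ova and 17.3 to 19.7 CPM in iBET Ova, a log2 fold change of -0.049 (95% interval -0.22 to 0.12), and with IC the change was 0.086 (-0.088 to 0.26). Those intervals leave room only for small changes. Ccne2 was at 9.70 to 15.4 CPM in DMSO Ova and 11.2 to 18.9 CPM in iBET Ova, a change of 0.25 (-0.20 to 0.70), and with IC of -0.0053 (-0.45 to 0.44). Ccne2 shares 609 exon bases with Ints8 on the other strand.

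Both G1 kinases were lower with iBET in all 5 mice under each stimulus. Cdk4, the partner of the D cyclins in most cells, was at 103, 93.8, 82.9, 80.7 and 80.8 CPM in DMSO Ova and at 87.7, 75.7, 79.5, 76.6 and 75.0 CPM in iBET Ova. These groups overlapped, and the change of -0.16 ± 0.0790 (SE) had an edgeR adjusted p of 0.0884, or 0.00534 with the mouse as a block. With IC it was at 125, 112, 112, 105 and 103 CPM in DMSO and 97.7, 93.1, 89.0, 88.3 and 77.5 CPM in iBET. The IC groups did not overlap, and the fall was by 0.32 on the log2 scale (SE 0.0788, edgeR adjusted p = 0.00184). Cdk4 shares 641 exon bases with Tspan31 on the other strand.

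Cdk6, the second D cyclin kinase, was at 29.8, 29.2, 50.5, 32.7 and 46.5 CPM in DMSO Ova and 26.5, 22.5, 34.6, 25.5 and 27.3 CPM in iBET Ova. With IC it was at 41.7, 39.3, 49.3, 31.4 and 51.6 CPM in DMSO and 19.5, 21.7, 34.4, 22.2 and 36.7 CPM in iBET. The groups overlapped under both stimuli, with mice C and E highest in each of them. It fell by 0.47 with Ova (SE 0.196, edgeR adjusted p = 0.0486) and by 0.67 with IC (SE 0.196, adjusted p = 0.00676). The Ova call is at the threshold: without any 1 of the 5 mice its adjusted p was 0.0518 to 0.141. With the mouse as a block it was 0.000541.

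Cdkn1a, which encodes p21, was at 132, 140, 237, 190 and 211 CPM in DMSO Ova and at 210, 224, 353, 273 and 333 CPM in iBET Ova. With IC it was at 132, 152, 217, 191 and 236 CPM in DMSO and 151, 197, 339, 247 and 339 CPM in iBET. Groups overlapped because mice A and B were low throughout, while within each of the 5 mice the iBET library was higher under both stimuli. The rise with Ova was 0.61 ± 0.227 (SE, 1.53-fold, edgeR adjusted p = 0.0272), and in this unpaired fit it no longer passed without mouse D (adjusted p = 0.0771) or mouse E (0.0587). Within the mice the rise with Ova was 0.52 to 0.67 on the log2 scale. With the mouse as a block its edgeR adjusted p was 6.32e-08. With IC the change was 0.46 ± 0.227 (adjusted p = 0.0949, or 7.60e-06 with the mouse as a block).

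Cdkn1b, which encodes p27, did not pass the unpaired test. Its level was 42.5 to 51.6 CPM in DMSO Ova and 36.2 to 48.0 CPM in iBET Ova (log2 fold change -0.16, 95% interval -0.44 to 0.12). With IC it was 32.6 to 63.9 CPM in DMSO and 35.2 to 48.7 CPM in iBET (-0.23, -0.51 to 0.054), with an edgeR adjusted p of 0.152, or 0.0315 with the mouse as a block.

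Cdkn2c, the INK4 inhibitor p18, was at 14.3, 14.8, 14.2, 13.3 and 13.4 CPM in DMSO Ova and 10.9, 9.43, 12.4, 13.7 and 12.3 CPM in iBET Ova, with mouse D the 1 mouse that was not lower. With IC it was at 12.9, 12.2, 13.3, 14.2 and 11.3 CPM in DMSO and 8.21, 9.05, 10.5, 10.2 and 9.01 CPM in iBET. The IC groups did not overlap. It fell by 0.25 with Ova (SE 0.0932, edgeR adjusted p = 0.0276) and by 0.44 with IC (SE 0.0941, adjusted p = 0.000470). The Ova call was lost without mouse A (adjusted p = 0.106), mouse B (0.282) or mouse C (0.0844), and on mice C, D and E alone the change was -0.041. With all mice and the mouse as a block its edgeR adjusted p was 0.0109.

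**Figure D3:**
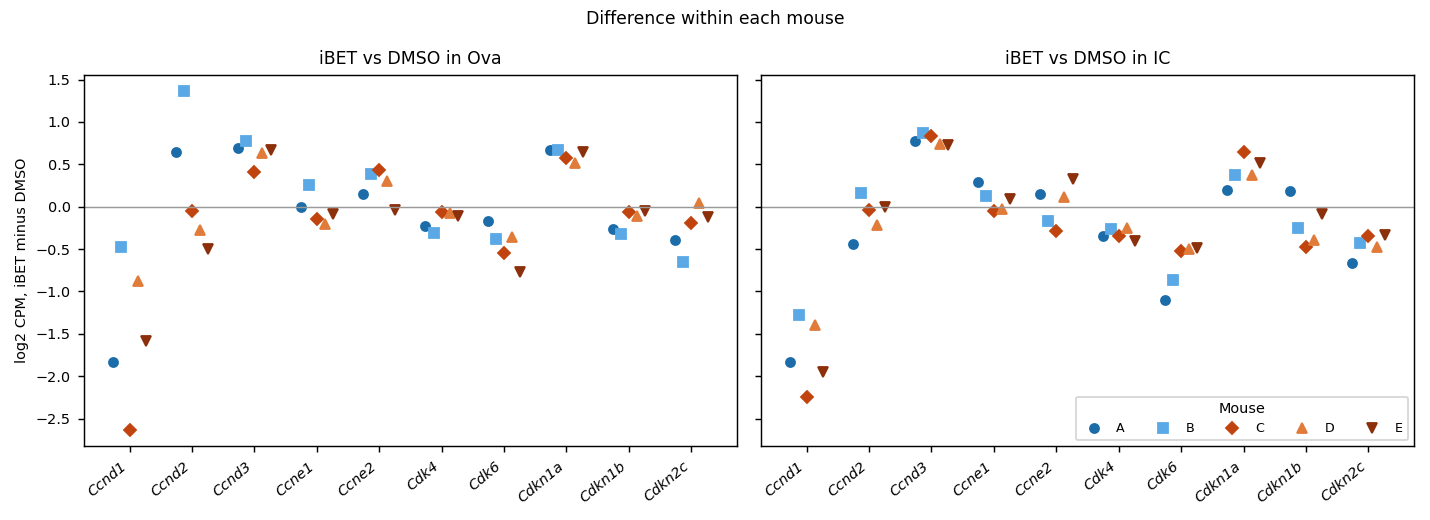
Difference in log2 CPM between the iBET and the DMSO library of the same mouse (vertical axis), for the 10 genes with Ova (left) and IC (right), with 1 point per mouse. Ccnd1 lay below 0 and Ccnd3 above 0 in all 5 mice in both panels, and Ccnd2 with Ova ran from -0.50 in mouse E to 1.36 in mouse B.

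The second question was what IC stimulation did, with and without the inhibitor. These comparisons share their libraries with those above, so they are not separate evidence. In DMSO cells 1 of 10 genes rose, Cdk4, and 0 fell by edgeR, against 9.59% higher and 10.7% lower of all tested genes, and 2 of the 10 had an unadjusted p under 0.05. Cdk4 rose by 0.33 ± 0.0789 (SE) on the log2 scale (1.26-fold, adjusted p = 0.00559) and was higher in 5 of 5 mice. The 2 groups overlapped at 1 point, since mouse A in DMSO Ova reached the level of mouse E in DMSO IC. Without mouse C the adjusted p was 0.0567, and with all mice and the mouse as a block it was 1.75e-05. Ccnd3 was lower in 5 of 5 mice with a log2 fold change of -0.36 ± 0.137 (edgeR adjusted p = 0.0704, or 0.00197 with the mouse as a block), and with the block 2 of 10 genes passed, against 38.1% of all genes. Ccnd1 had a log2 fold change of 0.44 with a 95% interval of -0.34 to 1.23.

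In iBET cells 1 of 10 genes fell with IC, Cdkn2c, and 0 rose by edgeR, against 6.63% lower and 5.19% higher of all tested genes, and 2 of the 10 had an unadjusted p under 0.05. Cdkn2c fell by 0.32 (SE 0.0944, adjusted p = 0.0292) and was lower in 5 of 5 mice. It no longer passed without mouse A (adjusted p = 0.0993), C (0.106), D (0.102) or E (0.107). With all mice and the mouse as a block its edgeR adjusted p was 0.00723. Cdk4 had a log2 fold change of 0.18 ± 0.0790 and was higher in 5 of 5 mice (edgeR adjusted p = 0.160, or 0.00833 with the mouse as a block). With the block 2 of 10 genes passed, against 28.9% of all genes.

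Whether iBET acted differently under the 2 stimuli was tested as an interaction. By edgeR 0 of 10 genes passed, and 0 had an unadjusted p under 0.05, against 0.0401% of all genes passing (5 genes). With the mouse as a block 0 of 10 passed and 2, Cdk4 and Cdkn1a, had an unadjusted p under 0.05. Their differences were then -0.16 and -0.19 on the log2 scale (edgeR adjusted p = 0.312 and 0.415). In the unpaired fit the interval of the difference was -1.43 to 0.99 on the log2 scale for Ccnd1, -0.24 to 0.58 for Ccnd3 and -0.39 to 0.078 for Cdk4. Cdk4 passing with IC and not with Ova, and Cdkn1a the reverse, are therefore not shown to be differences between the stimuli.

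**Figure D4:**
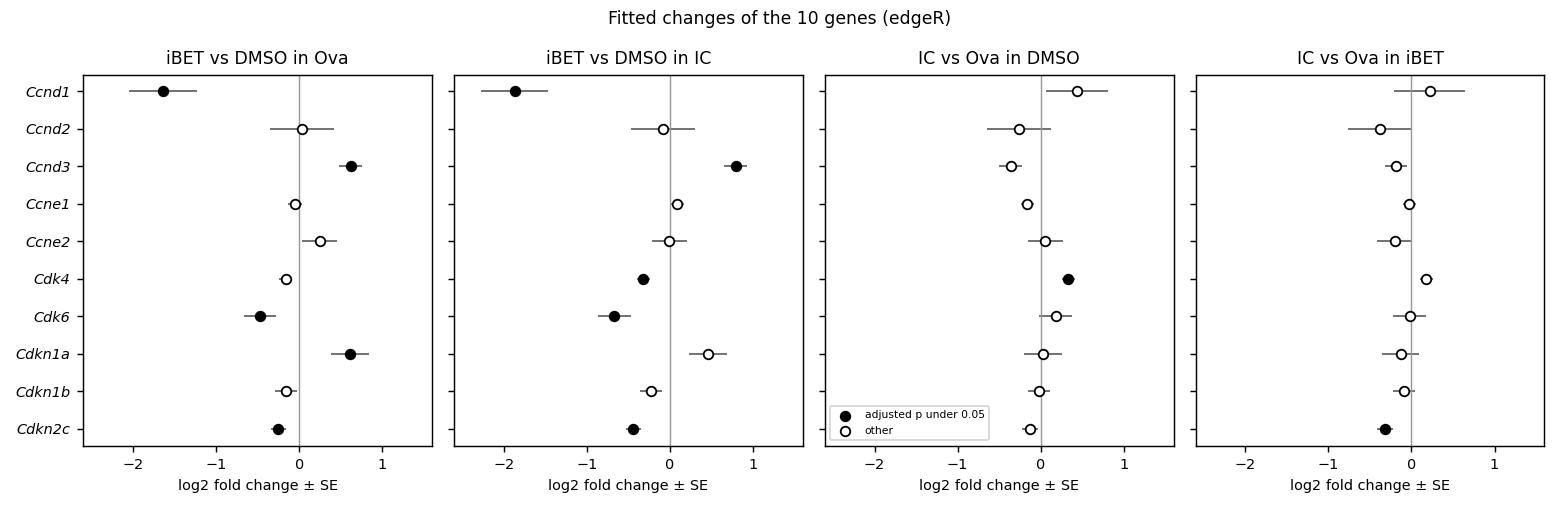
Fitted log2 fold change ± SE (horizontal axes) of the 10 genes in the 4 comparisons, with filled points for an edgeR adjusted p under 0.05. The iBET panels hold 5 filled points each and the IC panels 1 each (Cdk4 in DMSO, Cdkn2c in iBET).

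Around these 10 genes, the rest of the G1 to S pathway changed in both directions with iBET. Of the 4 other CDK inhibitors, 1 rose with Ova and 2 rose with IC, and the others did not pass (medians 0.22 and 0.28). Cdkn1c, which encodes p57, rose by 2.64 on the log2 scale with Ova and by 1.80 with IC (edgeR adjusted p = 4.83e-05 and 0.000607), from at most 8 reads per library in DMSO to at most 21 in iBET. Cdkn2d, the INK4 gene for p19, rose by 0.26 with IC.

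Of 13 genes of the RB and E2F family, 2 rose and 5 fell with Ova, and 1 rose and 6 fell with IC (medians -0.26 and -0.29). E2f2, an activating E2F, was at 37.7 ± 6.30 CPM (SD, n = 5) in DMSO Ova and 8.96 ± 0.713 CPM in iBET Ova, so it fell by 2.07 on the log2 scale, and it fell by 2.11 with IC (edgeR adjusted p = 8.28e-11 and 7.97e-11). The pocket proteins Rbl1 and Rbl2 fell by 0.62 and 0.46 with Ova, and E2f5, a repressive E2F, rose by 0.89 with Ova and 1.07 with IC. Of 5 genes for CDK2 and its activation (by the CDK-activating kinase or the phosphatase Cdc25a), 1 fell with Ova (Cdk2, by 0.15) and 2 fell with IC (Cdk7 by 0.35 and Cdk2 by 0.20), and the others did not pass.

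Of 6 genes for the ubiquitin-dependent turnover of cyclins and p27, 4 rose with Ova and 3 rose with IC, and the others did not pass (medians 0.34 and 0.30). Fbxw7, whose product marks cyclin E for destruction, rose by 0.68 and 0.72, Skp2, which does so for p27, by 0.50 and 0.44, and the scaffold Cul1 by 0.43 and 0.46. Cdkn1a is also a target of p53, and of 12 genes of that pathway 3 rose and 6 fell with Ova and 1 rose and 7 fell with IC (medians -0.21 and -0.26). On that list Eda2r and Phlda3 fell by 1.22 and 1.09 with Ova, Eda2r from a low mean of 2.29 CPM in DMSO Ova. The antiproliferative gene Btg2, Trp53inp1 and Sesn2 rose by 0.48, 0.47 and 0.44 with Ova.

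Of 14 S phase genes, 4 rose and 6 fell under each stimulus (medians -0.088 with Ova and -0.14 with IC). Rrm2, a subunit of ribonucleotide reductase, rose by 0.56 with Ova and 0.30 with IC, and Pcna, the sliding clamp of the replication fork, by 0.44 and 0.31, whereas Mcm3 and Mcm5 of the replicative helicase fell by 0.52 and 0.53 with IC, beside Ccna2 by 0.70. Partners within the same complexes went opposite ways (both named after their values were seen): Mcm7 of the helicase rose by 0.29 with Ova and 0.21 with IC, and Rrm1, the other subunit of ribonucleotide reductase, fell by 0.38 and 0.47. Of 12 G2 and mitosis genes, 4 fell with Ova, and 1 rose and 8 fell with IC (medians -0.23 and -0.43). Cdc20, which activates the anaphase-promoting complex, fell by 0.68 with Ova and 1.06 with IC, and the mitotic kinase Plk1 by 0.69 and 0.94. Cenpa, the centromeric histone, rose by 0.58 with IC. The counts are to be read against the background shares above. They come from the unpaired fit, and with the mouse as a block the G2 and mitosis genes had 2 higher and 7 lower with Ova, the turnover genes 4 higher and 1 lower with IC, and the genes for CDK2 and its activation 2 lower with Ova.

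**Figure D5:**
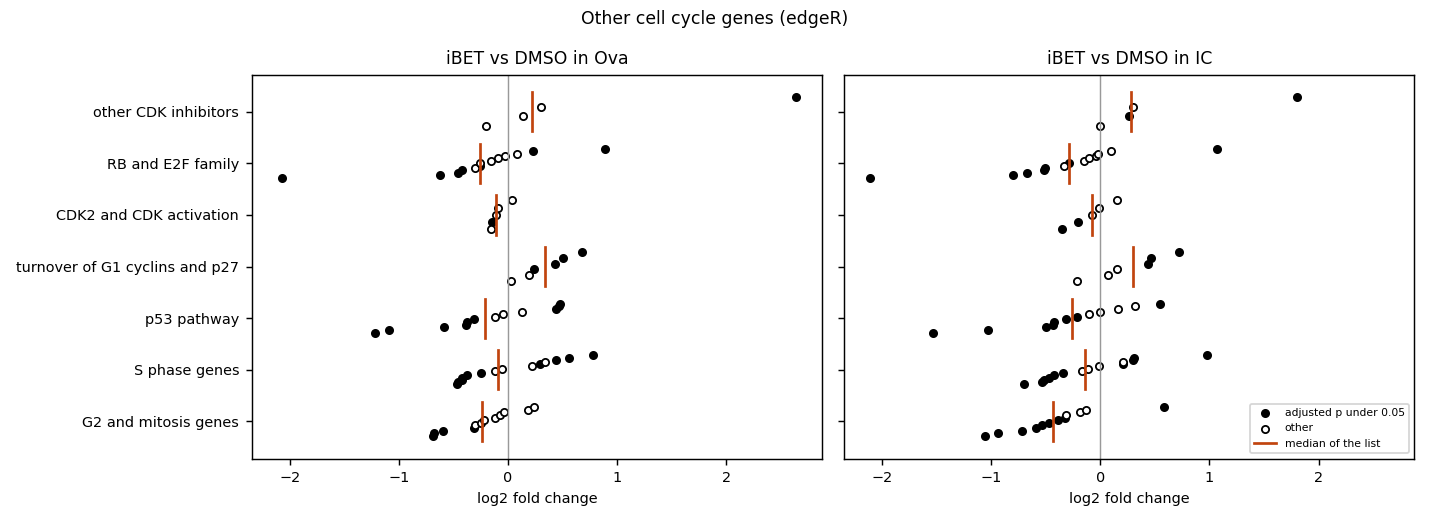
Fitted log2 fold change with iBET (horizontal axes) of 66 other cell cycle genes in 7 lists with Ova (left) and IC (right), with filled points for an edgeR adjusted p under 0.05 and a line at each list's median. The turnover genes had the largest positive medians (0.34 and 0.30), and the G2 and mitosis genes had the lowest median with IC (-0.43).

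With IC against Ova, the same lists gave the following. Of all tested genes, 9.59% were higher and 10.7% lower in DMSO cells, and 5.19% and 6.63% in iBET cells. With the mouse as a block these shares were 18.3% and 19.8% in DMSO cells, and 14.2% and 14.7% in iBET cells. In DMSO cells 3 of 13 RB and E2F genes fell, among them E2f2 by 0.40, and the other 10 did not pass, though 2 of them were higher with the mouse as a block. In iBET cells 3 of the 13 fell, among them Rbl1 by 0.49. Of the turnover genes 2 of 6 rose in DMSO cells, Skp2 by 0.47 and Rbx1 by 0.37 (4 higher and 1 lower with the block). In iBET cells 0 of 6 passed by edgeR, with 3 at an unadjusted p under 0.05 and 3 higher with the block. Of 14 S phase genes 3 fell in DMSO cells and 3 in iBET cells, and the others did not pass (2 higher and 6 lower, and 8 lower, with the block). Of 12 G2 and mitosis genes 1 rose and 3 fell in DMSO cells, and 1 rose and 4 fell in iBET cells (with the block 5 fell in DMSO cells and 10 in iBET cells, and 1 rose in each). Of 5 genes for CDK2 and its activation 2 rose and 1 fell in DMSO cells, and 1 rose in iBET cells. Of the 4 other CDK inhibitors 0 passed in either (1 higher in iBET cells with the block). Of 12 genes of the p53 pathway 2 rose in DMSO cells, and 1 rose and 1 fell in iBET cells. Mdm2, the ubiquitin ligase for p53, rose by 0.44 in DMSO cells and 0.41 in iBET cells, and Sesn2 fell by 0.42 in iBET cells. Cenpa rose by 0.85 in DMSO cells and 1.20 in iBET cells (edgeR adjusted p = 7.64e-05 and 1.85e-06), whereas Cdc20 fell by 0.44 and 0.82 and Aurkb, another mitotic kinase, by 0.49 and 0.61.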

How the data were processed

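Total RNA of 20 BMDC libraries, 5 mice in each of 4 groups, was made into libraries with a stranded low-input kit and sequenced. Reads were demultiplexed with CASAVA by the sequencing company. The authors trimmed them with Trim Galore, checked them with FastQC, aligned to mm10 with HISAT2 and counted with featureCounts, per the labels and the submitters' processing notes, and deposited whole counts per gene. The deposited table of normalized values (unit signal) equalled the counts divided by a DESeq2 size factor to within rounding, and was used only for limma.

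Groups and mice came from the labels. The 10 genes and all gene lists were chosen with earlier results of these data known. Counts were tested with edgeR 4.0.16 (filterByExpr, TMM, quasi-likelihood F test, group as the only factor, all libraries in 1 fit), with Benjamini-Hochberg adjustment over all 12465 genes tested and a threshold of 0.05, and intervals are 95% on 16 degrees of freedom. CPM (counts per unit of library size) refer to the reads in the tested genes, scaled by TMM. The named genes were the 10 members, at most 3 higher and 3 lower genes for each list and comparison, and for members with a log2 fold change of at least 1 the 2 genes of nearest pattern. An S phase gene that the rule names is not reported here. P-values of the unpaired fit are set against the spread between mice within a group. Those with the mouse as a block are set against the spread left after each mouse's own level is removed. The precision of a low gene is limited by its counts.

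Libraries with the same letter came from 1 mouse, and their deviations from the group means correlated (mean 0.524, 0.307 to 0.675 over 30 pairs, against a mean of -0.127 for different mice), so the letters pair the libraries. The methods name DESeq2 and sva without a design. Alternatives were DESeq2 size factors, no scaling beyond library size, no filter, DESeq2 1.42.0, the mouse as a block, surrogate variables (sva 3.50.0), only the groups compared, limma 3.58.1 on log2 of normalized values plus 1, leaving out each mouse, and mice A and B or C, D and E alone. edgeR with and without the block, DESeq2 without it and limma were tested on simulated counts. These had no mouse effect and far fewer changed genes than iBET gave here, so they cannot show how the fits behave on paired libraries. In them edgeR and limma kept false calls near the threshold. DESeq2 made more false calls than its threshold allows, so calls made by DESeq2 alone are weak. Gene positions and exon lengths (exons of all transcripts of a gene merged) were from GENCODE M21 and promoter windows from RefSeq (GRCm38.p6). Exons shared with genes on the other strand were given because the strand setting of the counting is not given in the sources used here.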

Additional observations from a re-analysis of the deposited data

Results flagged for a closer look

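Among 40 groups of 5 libraries (10 genes in 4 groups), 1 had a library far from the others, and chance flags about 1 group in 20. In iBET Ova, Ccnd1 of mouse E was at 1.72 CPM (41 reads) and the other mice were at 0.991 to 1.09 CPM, so that the gap made up 0.862 of the group's range, above Dixon's limit of 0.71 for 5 samples. Ccnd1 still fell with Ova when mouse E was left out.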

How the results depend on the processing

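Ccnd1 and Ccnd3 with either stimulus, and Cdkn2c with IC, kept their direction and passed under all 16 alternatives. For iBET against DMSO with Ova, 5 members passed, and 3 did with no filter on low counts, with mice C, D and E only and without any 1 mouse (3 to 3). The count was 6 with the replicate block, with DESeq2 and the block and with surrogate variables. It was 4 with DESeq2 size factors, with only the groups compared and with limma. With IC, 5 members passed, and leaving out 1 mouse gave 5 to 6. Mice A and B only gave 4, with Cdk4 lost (adjusted p = 0.0534), and mice C, D and E only gave 5, with Cdk6 lost (adjusted p = 0.0791) and Cdkn1a gained. With library size only, Cdkn1a with Ova was lost (adjusted p = 0.0533). For IC against Ova in DMSO, 1 passed, against 3 with library size only and with surrogate variables, 2 with DESeq2, with the replicate block, with DESeq2 and the block and with mice C, D and E only, and 0 with mice A and B only, and leaving out 1 mouse gave 0 to 2. For IC against Ova in iBET, 1 passed, against 2 with the replicate block, with DESeq2 and the block and with surrogate variables, and 0 with no filter, with only the groups compared and with mice A and B only, and leaving out 1 mouse gave 0 to 1. The interaction had 0 in the 15 alternatives run. The paired fit, with the mouse as a block, ended no call. The causes were not tested, except that smaller sets hold fewer mice.

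Directions turned only for log2 fold changes that did not pass. With Ova, Ccnd2 (0.037) was -0.022 with library size only and -0.20 with mice C, D and E, and -0.093 to 0.20 without 1 mouse, and Ccne1 (-0.049) was 0.10 with mice A and B. With IC, Ccne2 (-0.0053) was 0.00034 with DESeq2 size factors, 0.013 with no filter, 0.0054 with the block, 0.015 with DESeq2 and the block, 0.048 with surrogate variables, 8e-06 with only the groups compared, 0.032 with limma, 0.037 with mice C, D and E, and -0.058 to 0.076 without 1 mouse. In DMSO, IC against Ova, Ccnd2 (-0.26) was 0.031 with surrogate variables and 0.37 with mice A and B, Ccne2 (0.057) was -0.047 and Cdkn1a (0.028) -0.083 with library size only, and Cdkn1b (-0.021) was 0.16 with mice C, D and E. Without 1 mouse they ran from -0.033 to 0.19 (Ccne2), -0.014 to 0.090 (Cdkn1a) and -0.13 to 0.053 (Cdkn1b). In iBET, Ccne1 (-0.026) was 0.019 with mice A and B and -0.042 to 0.013 without 1 mouse, and Cdk6 (-0.024) was 0.10 with surrogate variables, 0.093 with mice C, D and E and -0.16 to 0.063 without 1 mouse. In the interaction, Ccnd1 (-0.22) was 0.20 with surrogate variables, Ccnd2 (-0.12) 0.16 and Cdk6 (-0.20) 0.042 with mice C, D and E, and Cdkn1b (-0.070) 0.26 with mice A and B. Without 1 mouse Ccnd2 ran from -0.31 to 0.0072 and Cdkn1b from -0.17 to 0.0051.

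With library size only, the median of all genes with IC shifted by -0.11, and the share of called genes that were higher went from 47.3% to 18.3% in DMSO and from 43.9% to 13.4% in iBET. Depth limits Ccnd1, with 17 to 41 reads per iBET Ova library.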
